A study of Homo sapiens with 6 samples.

Results

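The Kruppel-like factors are a family of zinc finger transcription factors, and the 10 members described here were taken by name from the arrays: KLF2, KLF3, KLF4, KLF5, KLF6, KLF7, KLF9, KLF10, KLF11 and KLF13. They are 10 of the 19775 genes that have at least 1 single-symbol probe set and carry 32 of the 54613 probe sets. RNA was measured on 6 Affymetrix expression arrays, at 1 array for each line and treatment. The treatments were regorafenib at 1 µM (low dose), regorafenib at 10 µM (high dose) and solvent, as the sample labels give them. The lines were KKU-100, labelled as a poorly differentiated cholangiocarcinoma, and HuccT1, labelled as a bile duct carcinoma, and both are established human lines. The labels add that all 6 samples came from stably transduced cells kept under puromycin, without naming the construct that every group, solvent included, would then carry. The doses in the text of the study differ from those in the labels, so only the names low and high dose are used here. Regorafenib is an oral inhibitor of several kinases, among them receptors for vascular growth factors and RAF kinases.

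Kruppel-like factors bind GC-rich DNA, the GC box and the CACCC box, through C2H2 zinc fingers at their C-terminal end, and differ in the cofactors that their N-terminal parts recruit. KLF2, KLF4, KLF5, KLF6 and KLF7 are known mostly as activators that work with acetyltransferases such as EP300. KLF3 recruits the corepressor CTBP, and KLF9, KLF10, KLF11 and KLF13 recruit the corepressor SIN3A. Several members are early response genes, whose mRNA is short-lived and follows growth factor and kinase signalling within hours.

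RefSeq promoter windows on GRCh38.p14 run over 300 bases, from 250 bases before a start site of a gene to 50 bases after it. Such windows were searched for 8 of the 10 members, not for KLF3 and KLF10. Those of KLF2, KLF6, KLF11 and KLF13 are printed 5′ to 3′, because KLF2 was lower in all 4 comparisons with solvent and the others had changes of opposite sign in the 2 lines at both doses. KLF4 had such changes too, with a log2 change of only -0.01 at the high dose in KKU-100, and is not printed. They are KLF2 at chr19:16324576-16324875 on the plus strand, KLF6 at chr10:3785160-3785459 on the minus strand, KLF11 at chr2:10043579-10043878 on the plus strand and KLF13 at chr15:31326585-31326884 on the plus strand. Capitals mark the GC box, GGGCGG or CCGCCC, and the CACCC box, CACCC or GGGTG, the 2 elements that the family itself binds.
KLF2: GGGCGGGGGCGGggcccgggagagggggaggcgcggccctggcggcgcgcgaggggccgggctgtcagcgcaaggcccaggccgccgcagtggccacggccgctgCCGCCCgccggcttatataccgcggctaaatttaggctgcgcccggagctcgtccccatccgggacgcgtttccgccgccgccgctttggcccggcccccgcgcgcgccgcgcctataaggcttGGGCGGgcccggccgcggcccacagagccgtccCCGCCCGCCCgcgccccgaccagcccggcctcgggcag
KLF6: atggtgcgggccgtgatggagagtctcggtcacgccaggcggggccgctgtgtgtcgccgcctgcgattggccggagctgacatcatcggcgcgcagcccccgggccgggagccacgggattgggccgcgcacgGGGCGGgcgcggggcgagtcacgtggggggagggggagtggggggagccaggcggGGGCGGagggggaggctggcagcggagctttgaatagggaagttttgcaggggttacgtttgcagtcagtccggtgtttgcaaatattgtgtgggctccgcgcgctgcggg
KLF11: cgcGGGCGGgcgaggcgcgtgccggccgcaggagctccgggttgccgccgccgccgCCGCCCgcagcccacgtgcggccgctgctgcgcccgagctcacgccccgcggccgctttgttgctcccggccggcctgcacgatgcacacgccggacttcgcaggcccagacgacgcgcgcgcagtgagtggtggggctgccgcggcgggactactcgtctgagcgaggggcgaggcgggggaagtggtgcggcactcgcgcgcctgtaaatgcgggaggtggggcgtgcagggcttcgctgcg
KLF13: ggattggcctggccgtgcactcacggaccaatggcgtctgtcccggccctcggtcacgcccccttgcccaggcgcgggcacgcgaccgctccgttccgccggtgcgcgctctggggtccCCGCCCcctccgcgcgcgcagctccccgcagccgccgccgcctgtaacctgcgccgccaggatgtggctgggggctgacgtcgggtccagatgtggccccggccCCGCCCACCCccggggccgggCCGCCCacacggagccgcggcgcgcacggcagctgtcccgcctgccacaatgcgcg
The KLF2 window holds 6 GC boxes, the KLF6 window 2, the printed KLF11 window 2 and the KLF13 window 3. In KLF13 a CACCC box begins 22 bases before the start and shares bases with a GC box. KLF11 has 2 windows, and the one that is not printed holds a CACCC box, which the printed one lacks. The printed KLF11 window begins past the first base of the gene, chr2:10043550. Its start site thus lies inside the gene, and the window is not the sequence before that first base. The 8 members have 13 windows in all. GC boxes were found in 8 of these 13 and in 45.0% of the 35116 windows of all genes, both strands searched, and CACCC boxes in 7 of 13 and in 59.9%. A match to the MEF2 element, ctaaatttag, lies 120 bases before the KLF2 start, and of the 13 windows it was the 1 that held such an element, against 2.99% of all windows. The E-box CACGTG was in 4 of the 13 windows (1 each of KLF4, KLF6, KLF7 and KLF11) and in 7.26% of all windows. No AP-1 element, TGANTCA, was in any of the 13, against 7.71% of all windows. These are matches of letters only and do not show binding.

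The array medians lay between 28.8 and 29.3, so the deposited signal intensities were log2 transformed without further scaling. A gene is represented by its brightest probe set, and it passed the level filter of a line where its mean log2 signal reached the median of all probe sets, a signal of 28.9 in KKU-100 and 29.1 in HuccT1. Signals are compared between arrays for 1 probe set at a time, never between genes. The biliary markers KRT7, KRT8, KRT18 and SOX9 were above the filter in both lines. KRT19, a biliary keratin, and EPCAM, an epithelial adhesion protein, read 8.62 to 11.0 and 8.95 to 11.0 on the KKU-100 arrays, against 7654 to 9321 and 6432 to 6682 on the HuccT1 arrays, so the KKU-100 arrays lacked 2 of 6 markers of the labelled tissue. Of the markers of other cell types, 2 of 5 endothelial, 2 of 5 fibroblast, 2 of 3 leukocyte and 2 of 4 hepatocyte genes passed the filter in KKU-100, and 3, 4, 2 and 2 did in HuccT1. Among those past it in both lines were PECAM1 (54.8 to 74.1 over the 6 arrays), COL1A1 (135 to 197), LCP1 (116 to 174 in KKU-100 and 31.3 to 36.5 in HuccT1) and SERPINA1 (147 to 161 in KKU-100 and 2411 to 3509 in HuccT1). CDH5, KDR, PTPRC and ALB, which define endothelium, leukocytes and hepatocytes, were below it in both.

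Of the 10 members, 9 passed the filter in each line, and KLF9 did not in either. In KKU-100 at the low dose, 3 members (KLF3, KLF11 and KLF13) were higher than solvent by over 1.5-fold, where 9.75% of the 12694 genes past the filter were, and 1 (KLF2) was lower, where 7.32% were. At the high dose in KKU-100, 2 members (KLF6 and KLF11) were higher and 1 (KLF2) was lower, against 9.44% and 4.86% of genes. In HuccT1 at the low dose, no member was higher and 1 (KLF2) was lower, against 3.68% and 3.32% of 12789 genes. At the high dose in HuccT1, 2 members (KLF4 and KLF10) were higher and 2 (KLF2 and KLF13) were lower, against 8.23% and 6.44% of genes. The median log2 change of the 9 members was 0.26 and -0.01 at the low and high dose in KKU-100, and -0.13 and -0.38 in HuccT1, where the medians of all genes were 0.06, 0.06, 0.02 and 0.02. With 1 array per condition these differences have no replicate check and carry no p-value, and since the low and the high dose of a line were set against the same solvent array, agreement between them is no replication.

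**Figure D1:**
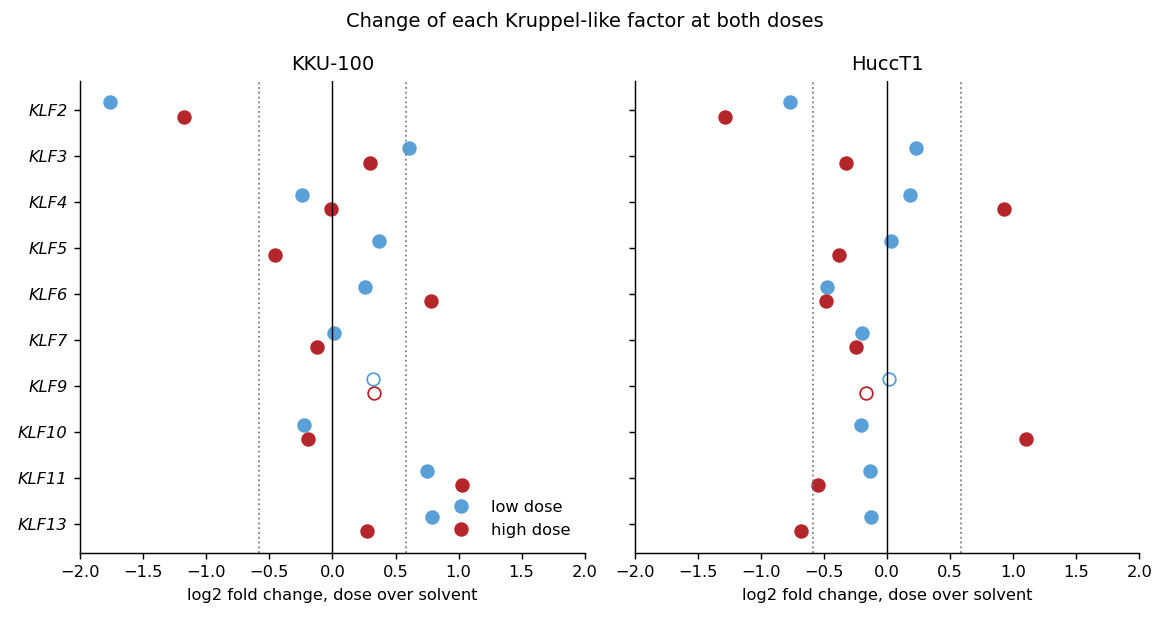
Log2 change of signal over solvent for the 10 members, at the low and high dose in KKU-100 and HuccT1, 1 array each. Dotted lines mark 1.5-fold, and open circles mark KLF9, which was below the level filter. KLF2 lies below 0 at all 4 points, between -1.77 and -0.77.

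KLF2, known for keeping endothelial cells and T cells quiescent and driven there by the ERK5 kinase and MEF2 factors, had the lowest log2 change of the 9 members past the filter in each of the 4 comparisons. Its signal in KKU-100 was 392 in solvent, 115 with the low dose and 173 with the high dose. In HuccT1 it was 282 in solvent, 165 with the low dose and 116 with the high dose. Both treated arrays were below the solvent array in each line, by a log2 change of -1.77 and -1.18 in KKU-100 and of -0.77 and -1.28 in HuccT1. Fewer cells that express the gene and less RNA per cell cannot be told apart in such bulk RNA. In KKU-100 the low dose array was the lowest of the 3, and in HuccT1 the high dose array was. Counted from the lowest change, KLF2 was number 72 and 115 of 12694 genes at the low and high dose in KKU-100, and number 198 and 116 of 12789 in HuccT1. These values come from 1 of the 2 KLF2 probe sets, 219371_s_at. The other, 226646_at, read 24.3 to 28.7 on all 6 arrays, below the level filter, and its log2 changes were 0.15 and 0.16 in KKU-100 and 0.15 and -0.09 in HuccT1.

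KLF4, a differentiation factor of skin and gut epithelium and 1 of the factors used to reprogram cells, was past 1.5-fold only in HuccT1 at the high dose. Its signal in KKU-100 was 468 in solvent, 396 with the low dose and 464 with the high dose, a log2 change of -0.24 and -0.01. In HuccT1 it was 341 in solvent, 386 with the low dose and 650 with the high dose, a log2 change of 0.18 and 0.93. The high dose array of HuccT1 thus stood above the other 5. The second KLF4 probe set, 220266_s_at, was also highest there, with a log2 change of 0.38, which did not reach 1.5-fold.

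KLF5, which promotes the growth of crypt and basal epithelial cells, stayed within 1.5-fold of solvent in all 4 comparisons, and its high dose arrays were the lowest of each line. The signal in KKU-100 was 624 in solvent, 807 with the low dose and 455 with the high dose, and in HuccT1 it was 721, 738 and 552 in the same order. Log2 changes were 0.37 and -0.46 in KKU-100 and 0.03 and -0.38 in HuccT1. The other KLF5 probe set, 209211_at, had the same signs, with 0.46, -0.14, 0.13 and -0.37.

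KLF6, a widely expressed early response gene first described as a core promoter element binding protein, was higher with regorafenib in KKU-100 and lower in HuccT1. In KKU-100 its signal was 751 in solvent, 896 with the low dose and 1294 with the high dose, a log2 change of 0.26 and 0.78. In HuccT1 it was 2014 in solvent, 1447 with the low dose and 1434 with the high dose, a log2 change of -0.48 and -0.49. Only the high dose in KKU-100 was past 1.5-fold, and the HuccT1 solvent array read the highest of the 6. KLF6 was brighter on every HuccT1 array than on any KKU-100 array. KLF7, a relative of KLF6 known for its part in neuron development, had signals of 149 to 163 in KKU-100 and of 199 to 236 in HuccT1, and its 4 log2 changes lay between -0.25 and 0.01.

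KLF3, a repressor known from red blood cell and fat cell development, was past 1.5-fold in KKU-100 at the low dose only. Its signal there was 227 in solvent, 347 with the low dose and 279 with the high dose, a log2 change of 0.61 and 0.30. In HuccT1 it was 427 in solvent, 501 with the low dose and 340 with the high dose, a log2 change of 0.23 and -0.33. The low dose array was the highest in both lines. At 0.61 against a cutoff of 0.585 on the log2 scale, the value in KKU-100 was just past 1.5-fold.

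**Figure D2:**
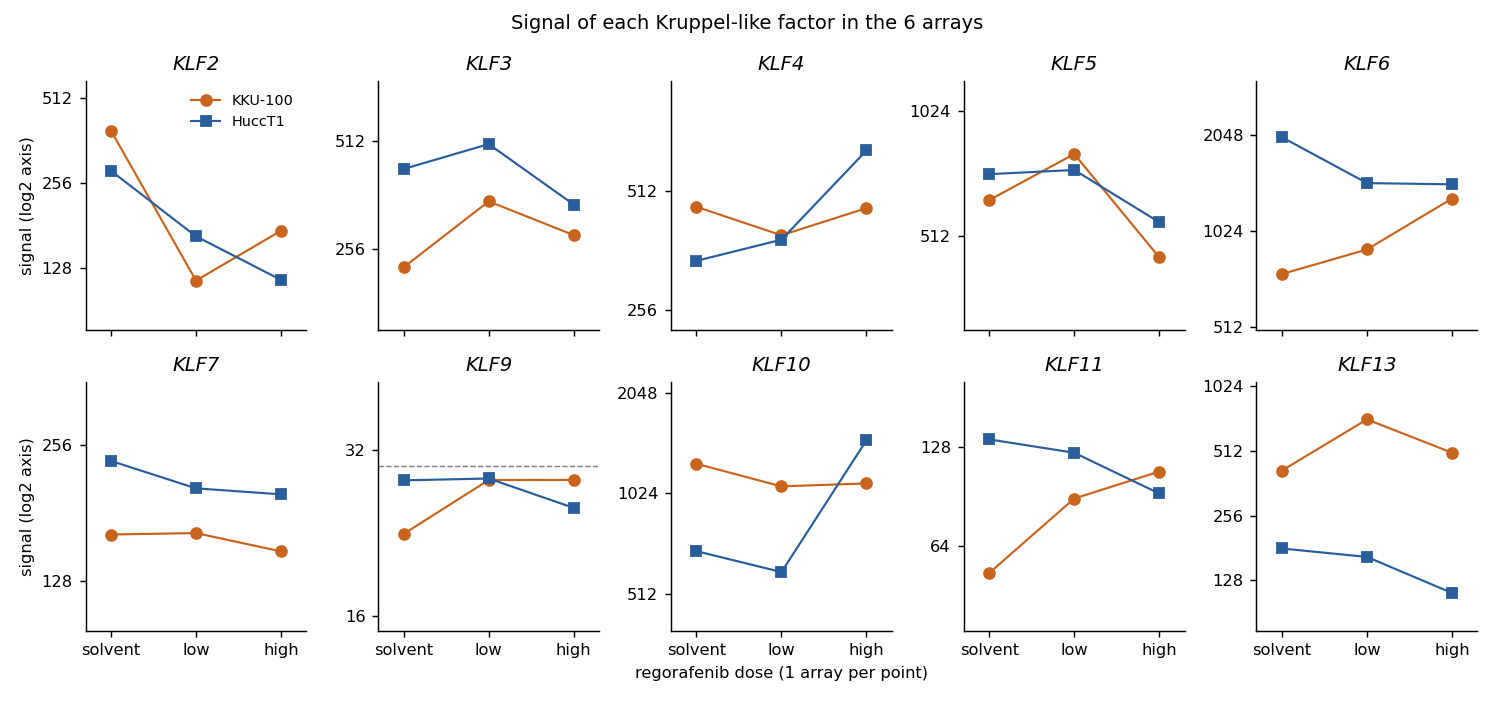
Signal intensity of each member's representative probe set on the 6 arrays, on a log axis, with solvent, low and high dose from left to right in KKU-100 and HuccT1. The dashed line is the level filter, which lies within the axis of the KLF9 panel only. KLF10 reaches 1476 in HuccT1 at the high dose, and KLF13 reads 416 to 719 on the KKU-100 arrays and 112 to 180 on the HuccT1 arrays.

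Of the members that recruit SIN3A, KLF10 was past 1.5-fold in HuccT1 at the high dose, KLF11 in KKU-100 at both doses and KLF13 in each line at 1 dose, in opposite directions. KLF10, an early response gene of TGF-beta signalling also called TIEG1, read 1255 in solvent, 1074 with the low dose and 1096 with the high dose in KKU-100, a log2 change of -0.22 and -0.19. In HuccT1 it read 687 in solvent, 594 with the low dose and 1476 with the high dose, a log2 change of -0.21 and 1.10. The high dose array of HuccT1 was the highest of all 6, and the low dose arrays were below solvent in both lines. KLF10 has 1 probe set, so no other probe set bears on it. Counted from the highest change, it was number 260 of 12789 genes in HuccT1 at the high dose, and KLF4 was number 396.

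KLF11, the close relative of KLF10 also called TIEG2 and known from insulin gene regulation, had low signals. In KKU-100 it read 52.9 in solvent, 89.2 with the low dose and 108 with the high dose, a log2 change of 0.75 and 1.03. In HuccT1 it read 135 in solvent, 123 with the low dose and 92.4 with the high dose, a log2 change of -0.13 and -0.55. Signals thus ran upward with dose in KKU-100 and downward in HuccT1. KLF11 was number 712 and 279 from the highest change of 12694 genes in KKU-100 at the low and high dose. Its second probe set was below the filter, with signals of 7.70 to 10.1.

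KLF13, a regulator of chemokine and cytokine genes in T cells, read 416 in solvent, 719 with the low dose and 503 with the high dose in KKU-100, a log2 change of 0.79 and 0.28. In HuccT1 it read 180 in solvent, 165 with the low dose and 112 with the high dose, a log2 change of -0.13 and -0.69. The KKU-100 and HuccT1 signals did not overlap. KLF9, induced by glucocorticoids and thyroid hormone in several tissues, was below the filter with all 5 of its probe sets, whose signals ran from 5.69 to 34.5. Its representative probe set read 22.6, 28.3 and 28.3 in KKU-100 and 28.2, 28.4 and 25.1 in HuccT1 in the order solvent, low and high dose, a level at which no change is read.

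Of 24 comparisons in the 6 genes with several probe sets past the filter, all probe sets of the gene had 1 sign in 17 and mixed signs in 7. KLF7 had mixed signs in 3 of its 4, with changes between -0.49 and 0.34 on the log2 scale, and KLF6 in 2. KLF6 had 5 past the filter, of which 4 were above solvent at the high dose in KKU-100 (up to 0.78 on the log2 scale) and 5 were below it at both doses in HuccT1 (-0.58 to -0.18 at the low and -0.56 to -0.31 at the high dose). The exception in KKU-100, 211610_at, had signals of 34.4 to 43.4 over the 6 arrays and a log2 change of -0.10. All 4 KLF3 probe sets were above solvent in KKU-100 with either dose and in low-dose HuccT1 cells, and 2 of 4 were above it in high-dose HuccT1 cells. The second KLF13 probe set past the filter, 219878_s_at, had log2 changes of 0.74 and 0.24 in KKU-100 and -0.33 and -0.60 in HuccT1, close to those of the first.

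**Figure D3:**
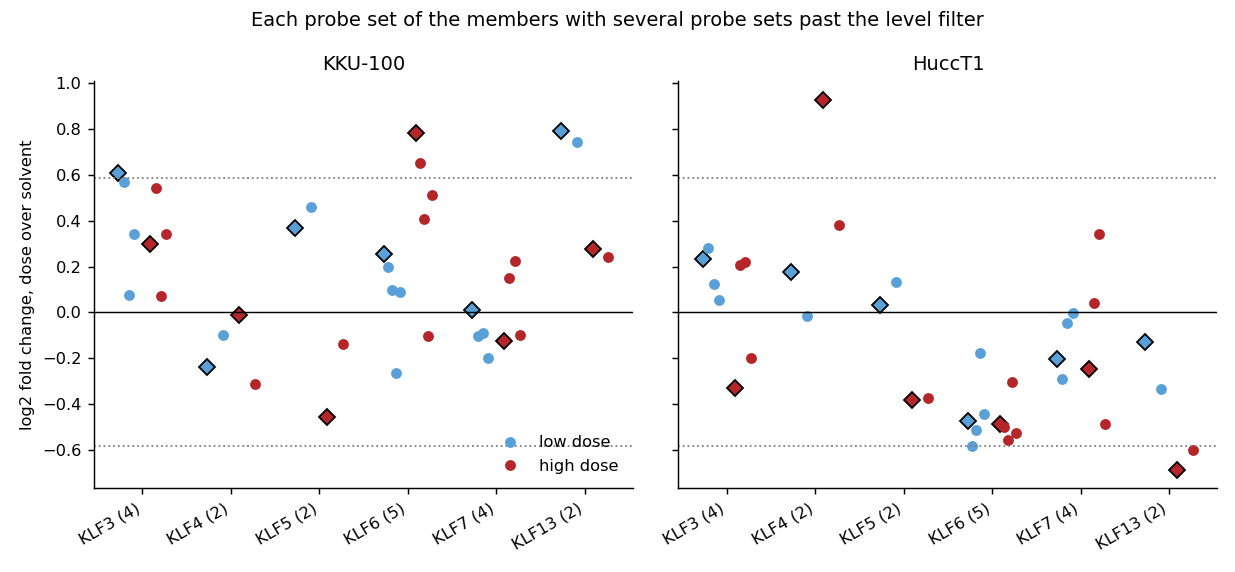
Log2 change over solvent of every probe set of the members past the level filter, for the low and high dose in KKU-100 and HuccT1. Diamonds mark the representative probe set, and the number in brackets is the count of probe sets past the filter. The 5 KLF6 probe sets all lie below 0 at both doses in HuccT1.

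A change common to both lines was tested with limma on the 6 arrays with cell line as a block, over 27307 probe sets and with Benjamini-Hochberg adjustment. No probe set passed an adjusted p of 0.05 at the low dose (0% of those tested), at the high dose (0%) or for high against low dose (0%), and so no member did. At an unadjusted p under 0.05, the low dose had 1289 probe sets that were higher and 1639 that were lower, the high dose had 2261 and 1820, and the contrast of high against low dose had 1730 and 928. After the same adjustment, the paired form of the methods' t-test called 1 probe set for the low dose and 5 for the high dose. At that unadjusted level, 1, 2 and 1 of the 9 members passed in the 3 contrasts, namely KLF2 at the low dose, KLF2 and KLF5 at the high dose, and KLF5 between the doses. KLF2 had a mean log2 change of -1.27 (SE 0.30, 95% interval -2.03 to -0.51, limma adjusted p 0.405) at the low dose and of -1.23 (SE 0.30, -1.99 to -0.47, adjusted p 0.198) at the high dose. With 1 array left out, the low dose value of KLF2 lay between -1.79 (without the low-dose HuccT1 array) and -0.75 (without the low-dose KKU-100 array), and the high dose value between -1.53 and -0.93. KLF5 had -0.42 at the high dose (SE 0.16, adjusted p 0.312) and differed by -0.62 between the high and the low dose (SE 0.16, 95% interval -1.02 to -0.23, adjusted p 0.433), the lower level being that at the high dose in both lines. The 2 lines stood in for replicates here, with the level difference between them removed as the block. These errors thus measure how far the changes over the treatments differ between the lines.

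Over the 3 treatments, the contrast of the lines called 51.1% of the probe sets tested (7130 higher and 6832 lower in KKU-100). Such calls were thus not particular to the members, of which it called 4 of 9. Counted by probe set, as that share is, 15 of the 22 member probe sets past the filter were called, and probe sets of 1 gene are not separate observations. The 3 differently treated arrays of a line stood in for its replicates. The errors thus measure how the line difference varied over the treatments, not variation between separate cultures. KLF13 was higher in KKU-100 by a log2 difference of 1.83 (SE 0.23, 95% interval 1.27 to 2.40, limma adjusted p 0.00176), and its second probe set by 1.72 (adjusted p 0.00235). Lower in KKU-100 were KLF3, with a log2 difference of -0.58 (SE 0.16, adjusted p 0.0308), KLF6, with -0.75 (SE 0.24, adjusted p 0.0457), and KLF7, with -0.43 (SE 0.13, adjusted p 0.0384). All 4 probe sets of KLF3, all 4 of KLF7 past the filter and 4 of 5 of KLF6 were called. KLF10 had 0.43 (adjusted p 0.248) and KLF11 -0.53 (adjusted p 0.2). KLF5 had -0.12 (adjusted p 0.479) with its brighter probe set but -0.89 (adjusted p 0.00313) with the other. KLF13 stayed called with any 1 array left out (adjusted p 7.55e-05 to 0.0185). The call was lost for KLF3 without the low dose array of KKU-100 (adjusted p 0.128) or of HuccT1 (0.13), for KLF6 without either of these (0.14 and 0.142) or without the HuccT1 solvent array (0.0541), and for KLF7 without any 1 of the 6 arrays (0.0618 to 0.152), while KLF10 was called without the high dose array of either line, with a log2 difference of 0.86 (adjusted p 0.0121 and 0.0123).

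**Figure D4:**
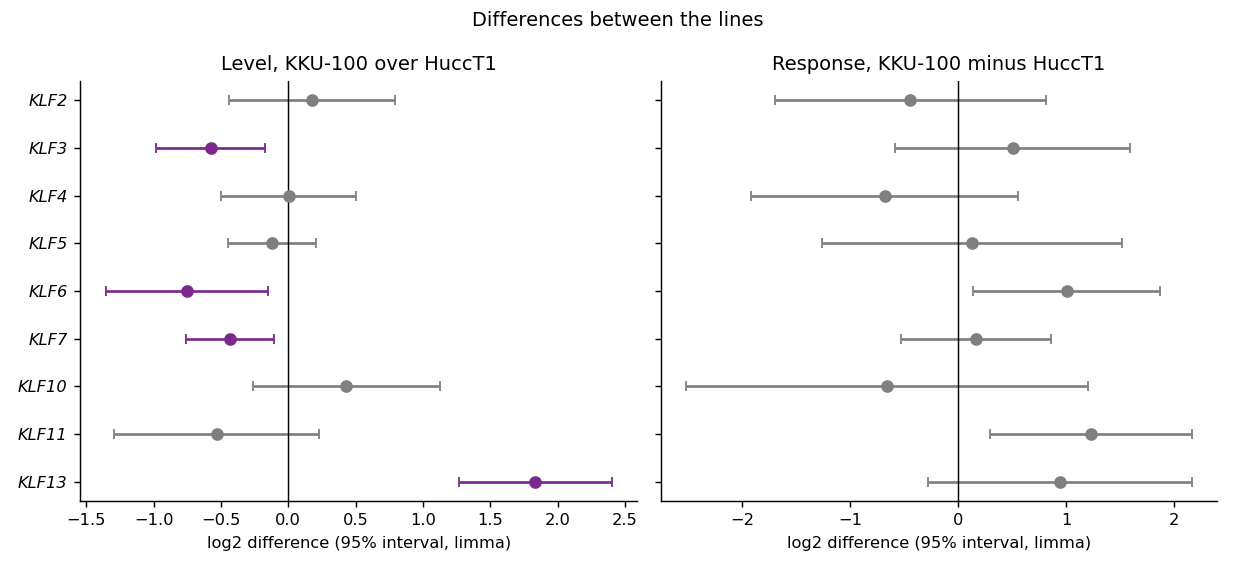
Differences between KKU-100 and HuccT1 for each member past the level filter, with 95% intervals from limma. The left panel shows the log2 difference in signal over the 3 treatments. The right panel shows the mean log2 change with regorafenib in KKU-100 minus that in HuccT1. Purple marks an adjusted p under 0.05, which no member reached on the right. On the left, KLF13 lies highest, at 1.83, and KLF6 lowest, at -0.75.

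Whether the response differed between the lines was tested with a line by treatment term, in which the low and high dose together count as treated, a test added after the data were seen. It called 0% of the 27307 probe sets, with 1325 higher and 916 lower at an unadjusted p under 0.05, and no member, of which 2 of 9 passed that unadjusted level. KLF11 had a mean log2 change that was larger in KKU-100 by 1.23 (SE 0.37, 95% interval 0.30 to 2.16, limma adjusted p 0.594), and KLF6 by 1.00 (SE 0.34, 0.14 to 1.87, adjusted p 0.605). For KLF13 the difference was 0.94 (SE 0.48, -0.28 to 2.17, adjusted p 0.674). For KLF4 it was -0.68 (SE 0.49, -1.92 to 0.56, adjusted p 0.762). The KLF4 change in high-dose KKU-100 cells was close to 0, at -0.01, and had the other sign, 0.01, with each array centred on its median. None of these 4 differences passed the test at this number of arrays. The solvent arrays are fitted exactly in this model, so its errors rest on the gap between the low and high dose arrays within each line. They do not measure variation between repeated cultures.

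The relatives and partners of the family were counted from lists chosen with earlier results of these data known. Of 8 other Kruppel-like factors 7 were on the array, and 3 passed the filter (KLF12, KLF15 and KLF16). KLF12, a CTBP-binding repressor related to KLF3, was past 1.5-fold downward in low-dose KKU-100 cells and upward in high-dose HuccT1 cells, with signals of 78.0, 41.9 and 61.7 in KKU-100 and 105, 112 and 204 in HuccT1 at solvent, low and high dose. KLF16 was lower past 1.5-fold in HuccT1 at the high dose (-0.85 on the log2 scale). Both were picked out after their values were seen. Among 6 SP factors past the filter, which bind the same GC box, only SP4, known from neurons, was past the cutoff, with signals of 384, 83.4 and 161 in KKU-100, a log2 change of -2.20 and -1.25. In HuccT1, SP4 read 311, 288 and 447, a log2 change of -0.11 and 0.52, within 1.5-fold. SP1 and SP3, the widely expressed members, stayed within 1.5-fold in all 4 comparisons.

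Of 11 cofactors and ubiquitin ligases, 1 was higher and 3 were lower in low-dose KKU-100 cells, and 2 were lower in high-dose KKU-100 cells. In HuccT1, none was past 1.5-fold with the low dose and 1 was lower with the high dose. The shares over all genes were 9.75% higher and 7.32% lower for the low dose and 9.44% and 4.86% for the high dose in KKU-100, and 3.68% and 3.32%, then 8.23% and 6.44%, in HuccT1, and they apply to the other lists too. EP300, the acetyltransferase that works with the activating members, read 680, 384 and 362 in KKU-100 at solvent, low and high dose, a log2 change of -0.82 and -0.91. It was lower in HuccT1 too, with a log2 change of -0.43 and -0.61, and was the gene past 1.5-fold there with the high dose. SIN3A, the corepressor of the KLF9, KLF10, KLF11 and KLF13 group, read 283, 188 and 168 there, a log2 change of -0.59 and -0.75. In HuccT1, SIN3A stayed within 1.5-fold.

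In the ERK5 and MEF2 pathway, whose 7 genes all passed the filter, 2 were lower in low-dose KKU-100 cells, and in high-dose KKU-100 cells 1 was higher and 1 lower. In HuccT1, the low dose had 1 gene that was higher and the high dose 2. MAP3K3, a kinase upstream of ERK5, was lower in KKU-100, with signals of 364, 239 and 237 at solvent, low and high dose and a log2 change of -0.60 and -0.62. In HuccT1, MAP3K3 stayed within 1.5-fold, with a log2 change of -0.14 and -0.34. MEF2C, a MEF2 factor, was higher in HuccT1, with 114, 180 and 322 and a log2 change of 0.66 and 1.499. In KKU-100 it read 64.1, 35.5 and 72.0, a log2 change of -0.85 and 0.17, so that it was past 1.5-fold downward with the low dose there. MAPK7, which encodes ERK5, stayed within 1.5-fold in all 4 comparisons. Of 14 described target genes of the family, 9 passed the filter in KKU-100, of which 2 were higher and 1 lower with the low dose, and 1 higher and 2 lower with the high dose. In HuccT1, 11 passed, and 3 of them were lower with the low dose, 4 with the high dose and none higher with either, where 3.32% and 6.44% of all genes were lower and 3.68% and 8.23% higher. CDH1, which encodes E-cadherin, read 22.9, 76.7 and 79.9 in KKU-100, a log2 change of 1.75 and 1.80, with a solvent signal under the filter. In HuccT1, CDH1 read 2628, 3238 and 2714, a log2 change of 0.30 and 0.05. CCND1, which encodes cyclin D1, read 2506, 1368 and 1288 in HuccT1, a log2 change of -0.87 and -0.96. In KKU-100 its log2 change was -0.35 and -0.72, past 1.5-fold with the high dose. MAOA, a monoamine oxidase described as a target of KLF11, read 1138, 734 and 616 in HuccT1, a log2 change of -0.63 and -0.88. In KKU-100, MAOA stayed within 1.5-fold, with a log2 change of -0.31 and 0.10. Of 10 housekeeping genes, none was past 1.5-fold in any comparison. limma called no gene of these lists for the low dose, the high dose or high against low dose.

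The genes whose pattern over the 6 arrays was most like that of a member were ranked by Pearson r of log2 signal after each line's mean was subtracted, over 12832 genes. With 6 arrays from 2 lines, several genes reach a high r, so the values are a description. An r takes no account of the size of a change, and some of these genes changed little. For KLF2 the nearest was FRMD6 (r 0.998), with signals of 1244, 549 and 692 in KKU-100 and 2878, 1928 and 1589 in HuccT1 at solvent, low and high dose, followed by UHMK1 and TMF1. For KLF4 they were GLO1, ATP6V0D1 and MICALL2 (r 0.997 to 0.998), of which GLO1 had log2 changes of only -0.04 to 0.14. For KLF6 they were MYCNOS, SOX7 and MCUR1 (r 0.995 to 0.999), of which SOX7, a transcription factor, read 81.5, 101 and 146 in KKU-100 and 1034, 770 and 751 in HuccT1. MYCNOS read 30.6 to 40.6, near the filter, with log2 changes of -0.14 to 0.22. For KLF10 they were ABTB3, H2BC6 and RGS16 (r 0.993 to 0.996), of which RGS16, a regulator of G protein signalling, read 43.5, 35.8 and 36.5 in KKU-100 and 36.2, 34.9 and 78.0 in HuccT1.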

How the data were processed

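RNA of KKU-100 and HuccT1 cells was measured on 6 Affymetrix arrays, 1 per condition, so that the number of arrays limits the precision and each comparison with solvent has no replicate. The deposited signal intensities are on a linear scale. The submitters' processing notes say that the authors used MAS5 to make them, version not given in the sources used here, and the study's methods name log2 normalization in GeneSpring. Scaling by either step cannot be undone, and MAS5 signals near the array median are noisy. All 6 sample columns were used.

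Groups were taken from the sample labels. Signals of 62 control probe sets were dropped, and the other signals were log2 transformed. In the array's annotation, 41091 probe sets carry 1 symbol, 1801 several and 11721 none. Each gene is represented by the single-symbol probe set with the highest mean log2 signal. The filter kept 27307 probe sets at or above the 50th percentile of mean log2 signal, in each line for fold changes and over all arrays for the models. Fold changes used the study's cutoff of 1.5-fold. Models were fitted with limma 3.58.1 in R 4.3.3 (lmFit, eBayes with a trend, 2 residual and 3.41 prior degrees of freedom) and tested on simulated data, and p-values were adjusted by Benjamini-Hochberg over all probe sets. Other steps used Python 3.11.15, numpy 2.4.6, pandas 2.3.3 and matplotlib 3.10.9.

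All 10 members were named with every probe set. Of the lists (other Kruppel-like factors, SP factors, cofactors and ubiquitin ligases, ERK5 and MEF2 pathway, described target genes, housekeeping genes), genes could be named that lay past 1.5-fold in 1 direction with both doses of a line, and for KLF2, KLF4, KLF6 and KLF10 the 3 genes nearest in pattern. KLF12, KLF15, KLF16, SP1, SP3 and MAPK7 were named outside this rule. Other list genes past 1.5-fold at only 1 dose of a line enter the counts without being named. Members and lists were chosen with earlier results of these data known. Marker lists covered biliary epithelium, endothelium, fibroblasts, leukocytes and hepatocytes. Alternatives were quantile normalization, median centring, omission of the level filter, its 60th percentile in place of the 50th, a floor at the 20th percentile, the median over a gene's probe sets, leaving out probe sets ending in _x_at or _s_at, a 2-fold cutoff, dose rank as a linear term, robust eBayes, eBayes without a trend, the methods' t-test and leaving out each array.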

Additional observations from a re-analysis of the deposited data

Results flagged for a closer look

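For 4 members, the log2 changes of both doses had 1 sign in KKU-100 and the opposite sign in HuccT1. For KLF4 this rests on a high dose change of -0.01 in KKU-100, which was 0.01 with each array centred on its median, and its second probe set had -0.02 in low-dose HuccT1 cells. The mean log2 change of both doses in KKU-100 minus that in HuccT1 was 1.23 for KLF11, 1.00 for KLF6, 0.94 for KLF13 and -0.68 for KLF4. The test of this difference, limma's line by treatment term, did not call any of them (adjusted p 0.594, 0.605, 0.674 and 0.762), and the adjusted p ranged from 0.361 to 0.999 over these genes in 4 fits that each left out 1 of the regorafenib arrays. Without a solvent array the term cannot be estimated. Both doses of a line were set against the same solvent array, so the level of that array enters both changes. For KLF6 the HuccT1 solvent array was the highest of the 6, at 2014, and for KLF11 the KKU-100 solvent array was the lowest, at 52.9. What part these arrays had in the pattern was not tested.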

How the results depend on the processing

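Treated and solvent arrays were paired by cell line in limma and in the methods' t-test, and the labels carry no replicate numbers that could form another block. KLF2 rests on 1 probe set: without probe sets ending in _x_at or _s_at, the other one gave, in low-dose and high-dose KKU-100 cells, log2 changes of 0.15 and 0.16, in low-dose HuccT1 cells 0.15, and limma means of 0.15 for the low and 0.0371 for the high dose. With the median over a gene's probe sets, 0 members were higher in low-dose and 0 in high-dose KKU-100 cells, 0 were lower in high-dose KKU-100 cells and 0 in low-dose HuccT1 cells, and 1 was lower in high-dose HuccT1 cells. This median takes in probe sets below the filter, as for KLF2, KLF11 and KLF13. It left KLF11 in KKU-100 and KLF13 in HuccT1 below the filter, and KLF13 had 0.42 in place of 0.79 in low-dose KKU-100 cells. A 2-fold cutoff left 0 higher in low-dose and 1 in high-dose KKU-100 cells, 0 lower in low-dose HuccT1 cells, and 1 higher and 1 lower in high-dose HuccT1 cells. Without probe sets ending in _x_at or _s_at, 0 were lower in low-dose KKU-100 cells, 1 was higher and 0 lower in high-dose KKU-100 cells, 0 were lower in low-dose HuccT1 cells, and 0 were higher and 0 lower in high-dose HuccT1 cells. That last setting leaves KLF4 and KLF10 with no probe set and KLF13 with none past the filter, so their counts fell by construction.

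The methods' t-test called 1 probe set for the low dose and 5 for the high dose, against 0 by limma. The line contrast called 5976 genes with the median over probe sets, 8753 probe sets without those ending in _x_at or _s_at, and 2 members without the level filter. With 1 array left out, calls ran from 0 to 1645 at the low dose (1645 without the HuccT1 solvent array and 2 without that of KKU-100), from 0 to 669 at the high dose (639 and 669 without the HuccT1 and the KKU-100 solvent array), from 0 to 227 for high against low dose (227 and 185 without these), from 9175 to 14731 for the lines, and from 1 to 4 for the members in the line contrast. No member was called in the dose contrasts or the line by treatment term under any alternative run. The KLF6 line call was also lost without the level filter (adjusted p 0.0509), without probe sets ending in _x_at or _s_at (0.0535) and without the trend (0.0634), and that of KLF7 without the level filter (0.0574). KLF5 was called lower in KKU-100 with the median over probe sets (-0.50, adjusted p 0.0176) and without probe sets ending in _x_at or _s_at (-0.89, adjusted p 0.00367). The causes were not tested. Signals near the filter, as for KLF9 and KLF11, limit what these arrays can show.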
